A study of Homo sapiens with 2 samples.

Results

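The genes described here are 10 epithelial and mesenchymal adhesion genes, chosen by symbol: the cadherins CDH1 and CDH2, the tight junction membrane proteins CLDN1, CLDN7 and OCLN, the junction plaque proteins TJP1, DSP and CTNNB1, and the epithelial genes EPCAM and ESRP1. Of these 10 members, 9 had a row among the 20981 genes listed, and the level of OCLN is not analysed here. The libraries came from PANC-1, by its label, a human cell line of pancreatic ductal carcinoma, transfected either with shWBSCR22, a short hairpin RNA against WBSCR22 (now BUD23, a methyltransferase of small-subunit ribosomal RNA), or with the control hairpin shCtrl. Each group held 1 library, so no difference below has a replicate check, no p-value was computed, and the values describe the libraries rather than the conditions. The sources used here do not give the sequences or number of the hairpins or the time after transfection.

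Cadherins are calcium-dependent receptors that join neighbouring cells, with CDH1 (E-cadherin) typical of epithelia and CDH2 (N-cadherin) typical of neural and mesenchymal cells. Their cytoplasmic tails bind catenins, which link the junction to actin, whereas claudins and occludin seal the tight junction above it and desmosomes anchor keratin filaments below it. In carcinoma cells a lower CDH1 with a higher CDH2 is a widely used mark of epithelial to mesenchymal transition, and the repressors SNAI1, SNAI2, ZEB1 and ZEB2 bind E-box motifs in the promoters of epithelial genes.

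The libraries held 15248099 counts in shWBSCR22 and 16121638 counts in shCtrl. BUD23 had 1892 counts in shWBSCR22 and 3487 in shCtrl, or 15.6 and 27.1 FPKM (counts scaled to annotated exon length and to library size). After scaling it was 39.1% lower in shWBSCR22. Its log2 ratio of shWBSCR22 over shCtrl was -0.716, short of the size rule given below, so it was called neither higher nor lower. Its counting interval (-0.798 to -0.635) and wider interval (-1.01 to -0.43), both explained below, excluded 0. Whether the differences below followed from the lower BUD23 was not tested. Low counts were clumped: leaving out 0 and the lowest few counts, the most frequent low count was 15 in shWBSCR22 and 8 in shCtrl. For this the number of genes at each count was averaged over 3 neighbouring counts. A few counts more or fewer therefore carry little weight. Of the ductal markers, KRT8, KRT18 and KRT7, keratins of simple epithelium, were abundant, with 614 FPKM of KRT8 in shWBSCR22 against 696 in shCtrl and 817 FPKM of KRT18 in shWBSCR22 against 995 in shCtrl. KRT19, the other keratin of duct cells in this list, was at 0 counts in both libraries. CDKN2A, a cell cycle inhibitor that is known to be deleted in PANC-1, had 6346 counts in shWBSCR22 and 12740 in shCtrl, which goes against the label. Whether the cells were PANC-1 was not tested, so the levels below are those of cells labelled so. Keratin genes have near-identical pseudogenes, which makes their counts uncertain.

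Promoter sequence is shown for the members called different below, 250 bases before a RefSeq start (GRCh38.p14), to show which of them holds the E-box that SNAI and ZEB factors bind. CLDN7 (chr17:7262479-7262728, minus strand) and CTNNB1 (chr3:41199255-41199504, plus strand) are written 5′ to 3′, with CACCTG and its reverse complement CAGGTG in capitals.
CLDN7: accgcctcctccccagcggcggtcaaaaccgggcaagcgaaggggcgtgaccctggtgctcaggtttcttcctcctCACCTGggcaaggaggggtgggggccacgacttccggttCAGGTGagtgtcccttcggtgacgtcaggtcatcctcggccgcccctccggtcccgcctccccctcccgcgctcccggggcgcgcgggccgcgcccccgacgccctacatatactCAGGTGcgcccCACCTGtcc
CTNNB1: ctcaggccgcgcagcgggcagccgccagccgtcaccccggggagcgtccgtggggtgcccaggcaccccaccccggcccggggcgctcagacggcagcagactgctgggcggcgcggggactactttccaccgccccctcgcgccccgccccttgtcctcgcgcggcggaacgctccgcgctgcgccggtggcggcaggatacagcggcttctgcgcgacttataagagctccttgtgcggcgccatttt
The CLDN7 window held 4 matches and the CTNNB1 window held 0. Upstream of the other listed start of CLDN7 there was no match. Of the members, 7 had an entry, with 13 windows, and 5 of these windows, belonging to CLDN7, DSP, OCLN and TJP1, held the motif, against 17.5% of 35116 windows of all genes. CDH1, EPCAM and ESRP1 had no entry, so their promoters were not searched. OCLN, which has no row among the genes listed, is included here, and its matching windows overlap each other. No enrichment can be read from so few windows. A match is a description of the letters and not a binding site.

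Epithelial cadherin was almost undetected in both libraries, and mesenchymal cadherin was low but counted in both. CDH1 (ENSG00000039068, chromosome 16, 68737225 to 68835548, plus strand, build GRCh38) showed 0 counts in shWBSCR22 and 2 counts in shCtrl. If reads are taken as independent, a count of 0 allows up to 3 counts, or 0.0318 FPKM, in shWBSCR22. With counts as clumped as here, a 0 allows more than that. The level of CDH1 in shCtrl was 0.0200 FPKM. CDH2 (ENSG00000170558, chromosome 18, 27950966 to 28177446, minus strand) had 90 counts in shWBSCR22 and 181 counts in shCtrl. Its level was 1.19 FPKM in shWBSCR22 (95% Poisson interval 0.955 to 1.46) and 2.26 FPKM in shCtrl (1.94 to 2.62). These intervals, like the other counting intervals below, cover counting error only and take the reads as independent. Spread between replicate libraries is not in them, because each group held 1 library. These reads carry no molecular identifiers, so repeats of a molecule cannot be removed, and a wider interval that allows for the clumped counts is given below.

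Per length, CDH2 therefore stood above CDH1 in both libraries. In shWBSCR22 the CDH2 level was 37.4-fold that of CDH1 when 0 is set to 3 counts, and at least 29.8-fold by the counting interval. In shCtrl it was 113-fold, with a 95% counting interval of 30.8 to 939.7. A wider interval, made from counts divided by 15 in shWBSCR22 and by 8 in shCtrl to allow for the clumping, put the lower bound at 1.47-fold in shWBSCR22 and at 6.16-fold in shCtrl. Whether the balance differed between the libraries could not be read from so few CDH1 counts: the log2 ratio of CDH1 over CDH2 in shWBSCR22 minus that in shCtrl had an exact conditional 95% upper bound of 3.44 and no lower bound. No fold is given for CDH1 itself, since both libraries were at or under 3 counts.

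**Figure D1:**
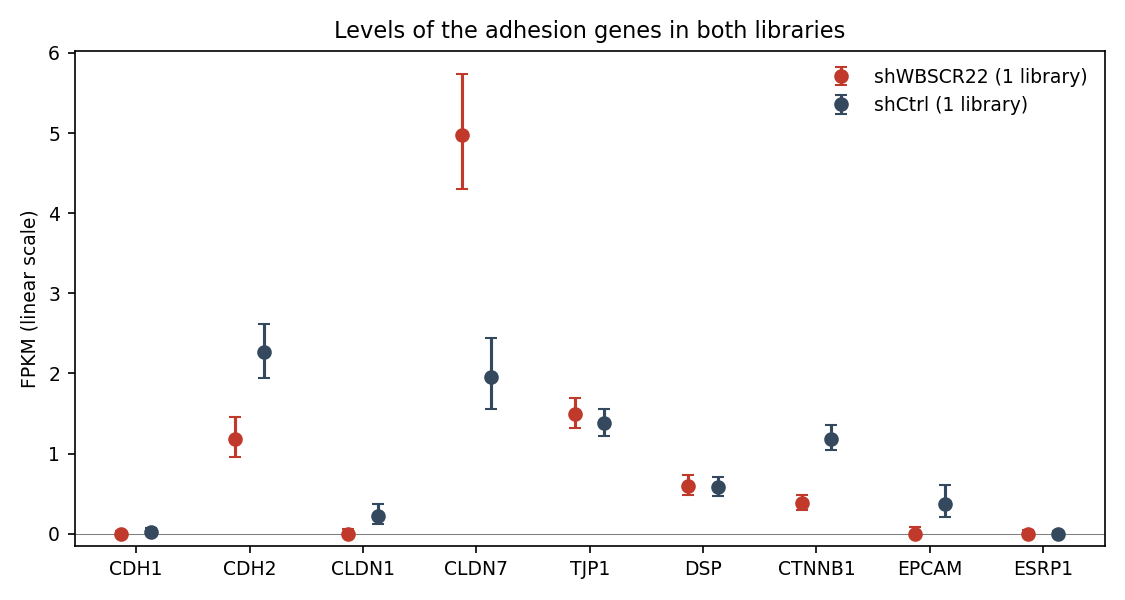
FPKM of the 9 listed members in shWBSCR22 (red, left of each pair) and shCtrl (dark blue, right), with 95% Poisson counting intervals, and up to 3 counts where the count was 0. CLDN7 is the highest member in shWBSCR22 at 4.98 FPKM and CDH2 the highest in shCtrl at 2.26 FPKM, while CDH1 and ESRP1 lie at or near 0 in both.

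EPCAM, CLDN1 and ESRP1 had 0 counts in shWBSCR22, and in shCtrl they had 15, 13 and 0. EPCAM (chromosome 2, 47345158 to 47387601), a homophilic adhesion protein of epithelial cells, had 0 counts in shWBSCR22 and 15 in shCtrl, or 0.368 FPKM there. It was 4.46-fold lower in shWBSCR22 when 0 is set to 3 counts, with a log2 ratio of at most -1.68 by the counting interval. CLDN1 (chromosome 3, 190305701 to 190322475), a claudin that seals the tight junction, had 0 counts in shWBSCR22 and 13 in shCtrl, or 0.219 FPKM there. It was 3.86-fold lower in the same way, with a log2 ratio of at most -1.44 by the counting interval. ESRP1 (chromosome 8, 94641074 to 94707466), a splicing factor that maintains epithelial isoforms, had 0 counts in both libraries. If reads are taken as independent, that allows up to 0.0404 FPKM in shWBSCR22 and 0.0382 FPKM in shCtrl, and clumped counts allow more. A 0 at this depth was common: of 2064 genes with 10 to 20 counts in shCtrl, 52.5% had 0 counts in shWBSCR22, and of 1864 genes with 10 to 20 counts in shWBSCR22, 37.7% had 0 in shCtrl. The wider interval of the log2 ratio held 0 for both EPCAM (upper bound 3.69) and CLDN1 (4.19).

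CLDN7, which encodes a claudin of epithelial tight junctions and a known partner of EPCAM, was the member called higher in shWBSCR22. A gene was called where its log2 ratio after scaling, shWBSCR22 over shCtrl, was at least 1 in size and the counting interval excluded 0, over the genes whose mean reached 1 CPM (counts scaled to library size). CLDN7 (ENSG00000181885, chromosome 17, 7259903 to 7263983, minus strand) had 190 counts in shWBSCR22 and 79 counts in shCtrl, or 4.98 FPKM against 1.96 FPKM. It was 2.69-fold higher in shWBSCR22, with a log2 ratio of 1.43 (counting interval 1.05 to 1.83, wider interval 0.11 to 2.79). The end of CLDN7 overlaps 38 bases of ELP5 on the other strand, and the sources used here do not say whether reads were counted by strand. ELP5 had 828 counts in shWBSCR22 and 777 in shCtrl.

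CTNNB1 (beta-catenin), which binds the tail of classical cadherins and acts in the nucleus in Wnt signalling, was the member called lower. CTNNB1 (ENSG00000168036, chromosome 3, 41194741 to 41260096, plus strand) had 69 counts in shWBSCR22 and 229 counts in shCtrl, or 0.378 FPKM against 1.19 FPKM. It was 66.0% lower in shWBSCR22, with a log2 ratio of -1.56 (counting interval -1.98 to -1.17, wider interval -3.38 to -0.13). On the deposited FPKM with a pseudocount of 1 the log2 ratio was -0.67, short of the size rule. The span of CTNNB1, introns included, overlaps 13498 bases of ULK4 on the other strand, which had 74 counts in shWBSCR22 and 153 in shCtrl. Reads within that overlap, which is a part of the CTNNB1 span, cannot be told apart without strand.

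TJP1 (ZO-1), the scaffold that ties claudins and occludin to actin, and DSP (desmoplakin), which ties desmosomes to keratin filaments, were called neither higher nor lower. TJP1 (chromosome 15, 29699367 to 29968865) had 258 counts in shWBSCR22 and 251 in shCtrl, with a log2 ratio of 0.21 and a counting interval of -0.05 to 0.46. DSP (chromosome 6, 7541575 to 7586717) had 92 counts in shWBSCR22 and 95 in shCtrl, with a log2 ratio of 0.12 and an interval of -0.31 to 0.55. For both genes the counting interval held 0. CDH2 was 44.1% lower in shWBSCR22 (log2 ratio -0.84, counting interval -1.22 to -0.47), short of the size rule, and its wider interval of -2.43 to 0.50 held 0.

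Of the 9 listed members, 5 passed the level filter and 4 (CDH1, CLDN1, EPCAM and ESRP1) did not. Among the 5, 1 was called higher, 1 lower and 3 neither, by the counting interval and by the wider one. Over all 12980 genes compared, 12.2% were called higher and 11.9% lower with the counting interval, and 4.19% and 2.98% with the wider one. At a mean of 5 to 20 CPM, the range that holds the 5 members, the shares among 4034 genes were 10.0% and 11.3% with the counting interval, and 5.97% and 5.28% with the wider one. With so few members, 1 call in each direction is not set apart from these shares. The median log2 ratio was 0.12 over the 5 members and -0.02 over all genes compared.

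**Figure D2:**
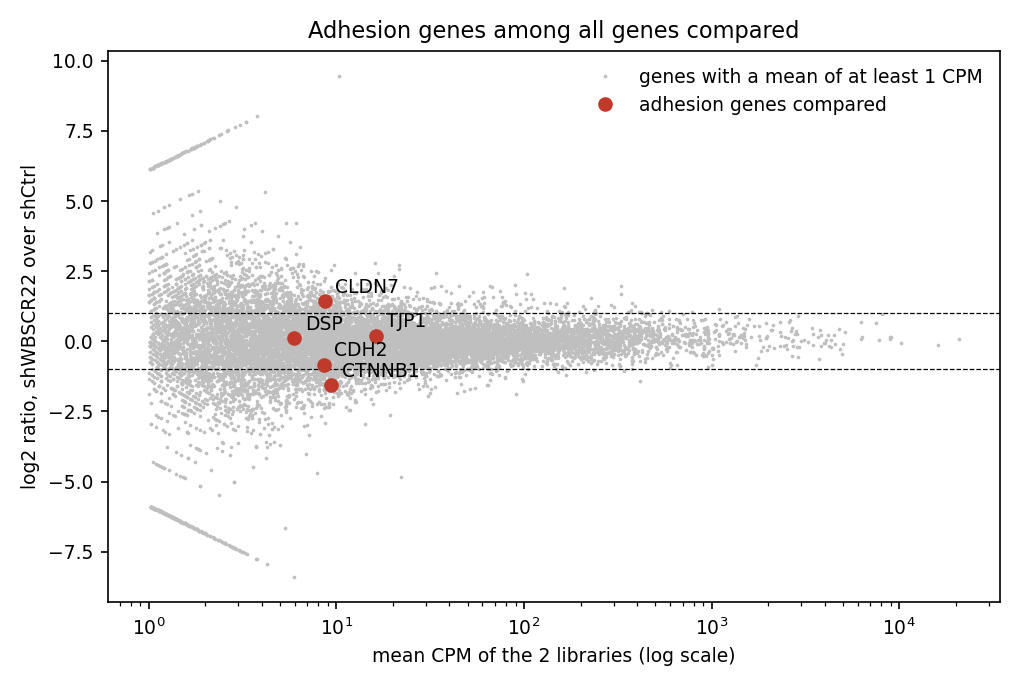
Log2 ratio of shWBSCR22 over shCtrl (0.5 counts added) against the mean CPM (log axis) for 12980 genes in grey, with the 5 members compared in red and the 2-fold size rule as dashed lines. CLDN7 at 1.43 and CTNNB1 at -1.56 lie outside the lines, in a range of level where many grey points do so too; the straight streaks are genes with 0 counts in 1 library.

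**Figure D3:**
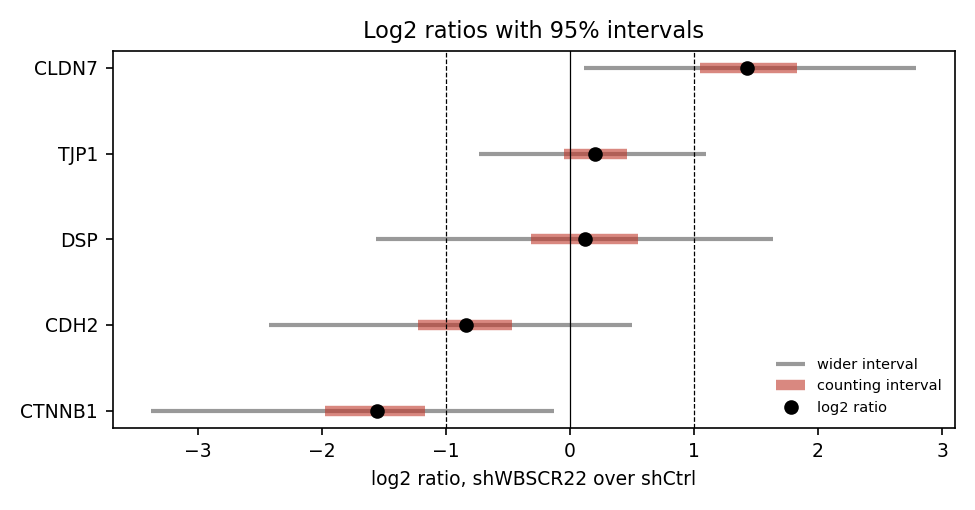
Log2 ratio of the 5 members compared (points), with the 95% counting interval (thick red bar) and the wider interval for clumped counts (thin grey bar). Both intervals exclude 0 for CLDN7 and CTNNB1, the counting interval alone does so for CDH2, and neither does for TJP1 and DSP.

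The order of the members by level differed between the libraries. In shWBSCR22 CLDN7 stood first and above 77.9% of all listed genes, TJP1 (1.496 FPKM) and CDH2 followed with overlapping counting intervals, and DSP (0.595 FPKM) and CTNNB1 came next. In shCtrl the intervals of CDH2 and CLDN7 overlapped, as did those of CLDN7 and TJP1 and those of TJP1 (1.38 FPKM) and CTNNB1. DSP (0.582 FPKM), EPCAM and CLDN1 lay below them, each overlapping the next, and CDH1 was lower than CLDN1 beyond the counting intervals. FPKM divided counts by the length of all annotated exons of a gene, 11964 bases for CTNNB1 against 2500 for CLDN7, so a gene with many long transcripts stands lower on this scale than per transcript.

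Other cadherins carried most of the family's reads. CDH24, a less studied type II cadherin, was the most abundant of the cadherins listed, with 34.4 FPKM in shWBSCR22 and 26.3 FPKM in shCtrl, and was called neither (log2 ratio 0.47). Of 16 other cadherins with a row 6 were compared, of which 3 were called higher, 1 lower and 2 neither. Over all genes compared, 12.2% were called higher and 11.9% lower, and 6 genes are too few to set beside these shares. CDHR2 and CDHR5, protocadherins of brush border microvilli, had 74 counts in shWBSCR22 against 9 in shCtrl and 102 counts in shWBSCR22 against 31 in shCtrl, with log2 ratios of 3.14 (wider interval 0.14 to 8.28) and 1.87 (-0.13 to 4.15). CDHR2 overlaps 173 bases of GPRIN1 on the other strand, which had 373 counts in shWBSCR22 and 411 in shCtrl. CDH16, the kidney cadherin, had 185 counts in shWBSCR22 and 65 in shCtrl (log2 ratio 1.67, wider interval 0.28 to 3.15). CDH15, the cadherin of muscle precursors, had 0 counts in shWBSCR22 and 120 in shCtrl, 35.7-fold lower when 0 is set to 3 counts. Its log2 ratio was at most -4.84 by the counting interval and at most -0.77 by the wider interval. CDH3 (P-cadherin), CDH11, a mesenchymal cadherin, and CDH5, the cadherin of endothelium, were at 0 counts in both libraries, together with CDH8, CDH26 and CDHR1.

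Among the other claudins with a row, 7 were compared and 0 were called in either direction, with a median log2 ratio of 0.33. The shares called over all genes compared were 12.2% higher and 11.9% lower, and 7 genes are too few to set beside them. CLDN4, an epithelial claudin, was the most abundant, with 11.1 FPKM in shWBSCR22 and 8.15 FPKM in shCtrl, and a log2 ratio of 0.54. CLDN15, which forms cation pores, had 3.95 FPKM in shWBSCR22 and 7.01 FPKM in shCtrl, and a log2 ratio of -0.74. CLDN3, CLDN5, CLDN10, CLDN11 and CLDN18 were at 0 counts in both libraries. Both libraries thus held reads of the epithelial claudins CLDN4 and CLDN7, with CDH1 and ESRP1 at or near 0 in both.

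**Figure D4:**
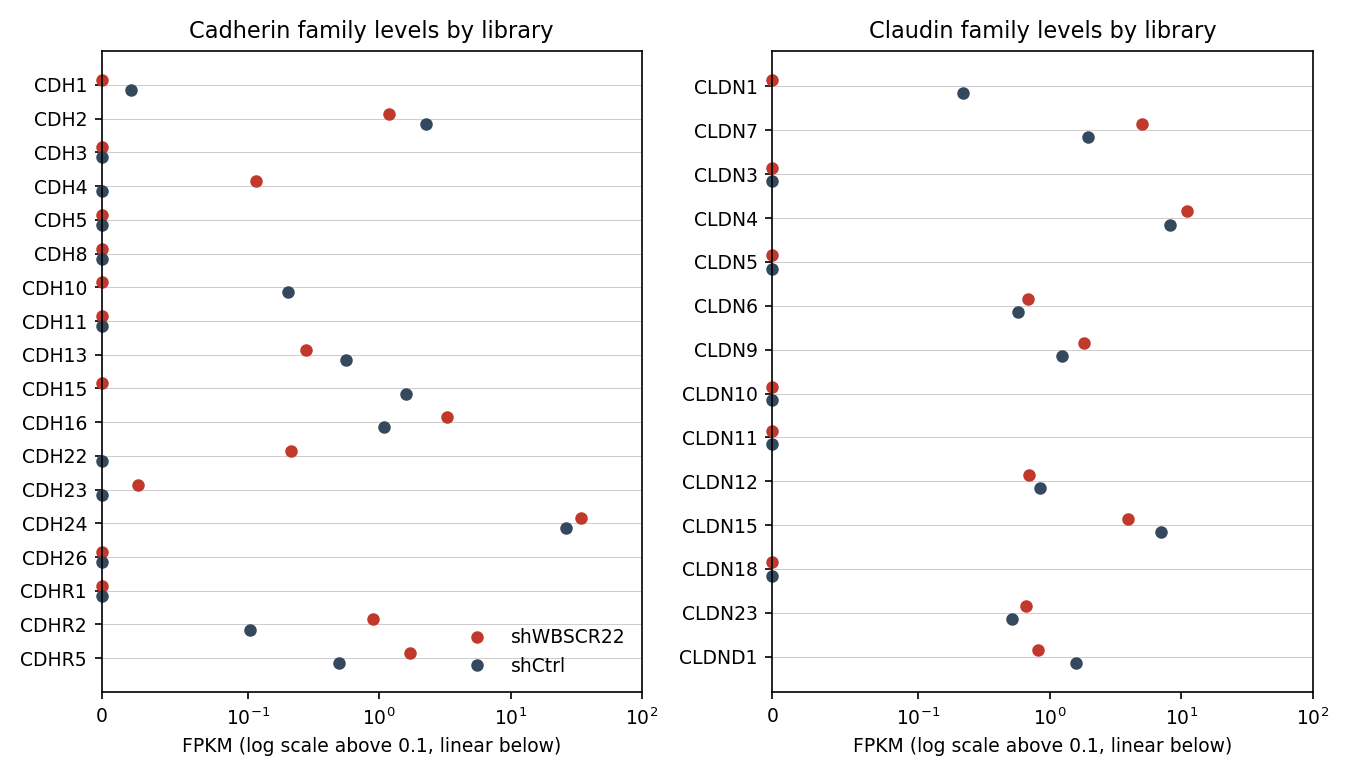
FPKM of the cadherin (left) and claudin (right) genes with a row, in shWBSCR22 (red, upper point) and shCtrl (dark blue, lower point), on an axis that is logarithmic above 0.1 and linear below. CDH24 and CLDN4 have the highest levels of their families in both libraries, and CDH1 lies at 0 in shWBSCR22 and 0.0200 in shCtrl.

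RNA of gamma-catenin was more abundant than that of beta-catenin in both libraries. JUP, which encodes it and is found in adherens junctions and desmosomes, had 3577 counts in shWBSCR22 and 3530 in shCtrl, or 47.3 and 44.2 FPKM. Its level per length was 125-fold that of CTNNB1 in shWBSCR22 and 37.2-fold in shCtrl. These folds carry no interval and rest on 69 CTNNB1 counts in shWBSCR22 and 229 in shCtrl. They also depend on the exon lengths, 4957 bases for JUP and 11964 for CTNNB1. Of 11 other catenin and adherens junction genes compared, 0 were called in either direction, with log2 ratios between -0.95 and 0.60 and a median of -0.14. The shares called over all genes compared were 12.2% higher and 11.9% lower, and 11 genes are too few to set beside them. NECTIN2, an immunoglobulin-like adhesion receptor, had 17.9 FPKM in shWBSCR22 and 15.1 FPKM in shCtrl.

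Of 17 other tight junction genes compared, 2 were called higher, 1 lower and 14 neither, with a median log2 ratio of -0.11. Over all genes compared, 12.2% were called higher and 11.9% lower. MAGI1, a scaffold of the junction, had 126 counts in shWBSCR22 and 42 in shCtrl (log2 ratio 1.74, wider interval 0.01 to 3.65). Its span overlaps RPL17P17 on the other strand, with 32 counts in shWBSCR22 and 23 in shCtrl. On the same strand it overlaps AC106827.1, with 0 counts in shWBSCR22 and 10 in shCtrl. PATJ, of the Crumbs polarity complex, had 37 counts in shWBSCR22 and 15 in shCtrl (1.44, -1.98 to 5.28). It overlaps RN7SL180P on the same strand, which had 33 counts in shWBSCR22 and 6 in shCtrl, so reads within the overlap may not be told apart. LSR, which recruits proteins to corners where 3 cells meet, had 114 counts in shWBSCR22 and 288 in shCtrl (-1.17, -2.52 to -0.02). LSR overlaps AC002128.1 on the same strand, which had 12 counts in shWBSCR22 and 34 in shCtrl. TJAP1, a tight junction-associated protein, had 3.18 FPKM in shWBSCR22 and 4.59 FPKM in shCtrl.

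Of 7 other desmosome genes compared, 0 were called higher, 1 lower and 6 neither. PKP2, an armadillo protein of the desmosome plaque, had 3 counts in shWBSCR22 and 38 in shCtrl (log2 ratio -3.29, counting interval -5.84 to -1.84), and its wider interval held 0. PERP, a desmosomal membrane protein, was the most abundant of them, with 21.3 FPKM in shWBSCR22 and 19.0 FPKM in shCtrl. EVPL (envoplakin) had 8.72 FPKM in shWBSCR22 and 12.0 FPKM in shCtrl. Of all 48 other cadherin, catenin, claudin, tight junction and desmosome genes compared, 5 were called higher and 3 lower by the counting interval. With the wider interval 3 were called higher and 2 lower, and the median log2 ratio was 0.07. The shares over all genes compared were 12.2% higher and 11.9% lower with the counting interval, and 4.19% and 2.98% with the wider one. No difference from these shares was tested.

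Levels of other epithelial surface genes ranged widely, and CEACAM1 was at 0 counts in both libraries. MUC1, a transmembrane mucin and the most abundant of this list, had 117 FPKM in shWBSCR22 and 62.1 FPKM in shCtrl, with a log2 ratio just under 1 that did not meet the size rule and reached 1.01 with DESeq2 size factors. CD24, a surface glycoprotein, had 83.1 FPKM in shWBSCR22 and 43.1 FPKM in shCtrl, and was the 1 of 6 such genes called (log2 ratio 1.03, wider interval 0.78 to 1.28). Under total-count scaling its log2 ratio was 0.95, short of the size rule. Over all genes compared, 12.2% were called higher and 11.9% lower. Of 10 epithelial regulators with a row, 4 were at 0 counts in shWBSCR22 and 2 in shCtrl. Only 4 of the 10 reached the level filter and were compared, and none of those compared was called. These included AP1M2, an epithelial clathrin adaptor subunit, with 29.97 FPKM in shWBSCR22 and 34.5 FPKM in shCtrl. KLF5, a transcription factor of epithelia, had 5.44 FPKM in shWBSCR22 and 5.05 FPKM in shCtrl. ESRP2, also compared, had 51 counts in shWBSCR22 and 36 in shCtrl (log2 ratio 0.66), while ESRP1 was at 0 in both.

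Of 9 mesenchymal regulators and markers compared, 1 was called higher, 0 lower and 8 neither, with a median log2 ratio of -0.05. Over all genes compared, 12.2% were called higher and 11.9% lower. SNAI1, a repressor of CDH1, had 106 counts in shWBSCR22 and 58 in shCtrl (log2 ratio 1.03, counting interval 0.56 to 1.52), its wider interval of -0.69 to 2.75 held 0, and under total-count scaling it was at 0.94. ZEB1, ZEB2 and SNAI2, named after their values were seen because they repress CDH1, had 112, 133 and 14 counts in shWBSCR22 against 143, 159 and 16 in shCtrl. VIM (vimentin), the intermediate filament of mesenchymal cells, had 72.0 FPKM in shWBSCR22 and 79.4 FPKM in shCtrl. S100A4, a calcium-binding protein also abundant in carcinoma cells, had 3586 FPKM in shWBSCR22 and 2042 FPKM in shCtrl (log2 ratio 0.90).

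**Figure D5:**
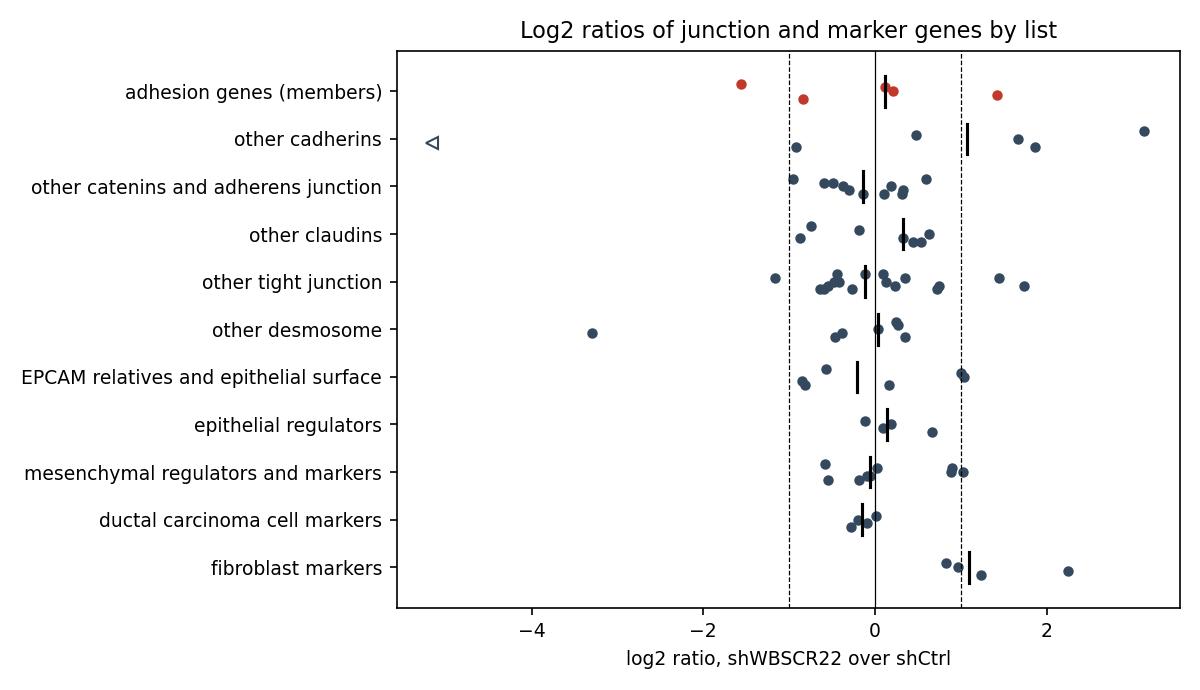
Log2 ratio of shWBSCR22 over shCtrl for the genes compared in each list drawn (points), with the list's median as a black bar and the size rule as dashed lines. The members are in red, and the open triangle is CDH15, at 0 counts in shWBSCR22 and drawn with 0 set to 3 counts. Endothelial and leukocyte markers are not drawn. Of the lists drawn, apart from the other cadherins and the fibroblast markers, the medians lie between -1 and 1 with most points inside the dashed lines.

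Markers of other cell types were low beside the keratins. The 7 fibroblast markers with a row summed to 14.1 FPKM in shWBSCR22 and 6.69 FPKM in shCtrl, and the 4 compared all had log2 ratios above 0. COL1A1, a collagen chain, had 11.8 FPKM in shWBSCR22 and 5.28 FPKM in shCtrl and was called higher by both intervals (log2 ratio 1.24, wider interval 0.85 to 1.64). DCN (decorin) was called higher by the counting interval alone, and LUM (lumican) by neither. COL3A1 and FAP were at 0 in both libraries. The 3 endothelial markers summed to 0.387 FPKM in shWBSCR22 and 0.112 FPKM in shCtrl, all of it PECAM1, which was called higher by the counting interval alone. The 3 leukocyte markers summed to 0.762 FPKM in shWBSCR22 and 7.96 FPKM in shCtrl, most of the shCtrl sum being LYZ, lysozyme, with 0 counts in shWBSCR22 and 191 in shCtrl, called lower by both intervals. Their part in the differences of CDH2, CLDN7 and CTNNB1 was not tested, and in bulk RNA fewer cells of a type and less RNA per cell cannot be told apart.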

How the data were processed

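Per the labels' protocols, libraries were built from total RNA with Illumina's TruSeq RNA kit. Tools listed in the submitters' processing notes are HISAT2, StringTie, DESeq, bcl2fastq and FastQC, on the build GRCh38, without versions or roles. The sources used here do not give the annotation release, the counting program or the use of strand. Raw counts and FPKM per gene were deposited by the authors. A deposited FPKM was 0 only where the count was 0, and the lengths they imply had a median of 1.00 times the exon union of GENCODE release 29.

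Groups came from the treatment labels. Genes whose mean reached 1 CPM were compared. TMM scaling was used (edgeR 4.0.16, R 4.3.3; factors 0.971 in shWBSCR22 and 1.03 in shCtrl), with 0.5 counts added before the log2 ratio. Intervals are exact conditional binomial (Clopper-Pearson) at 95%. The wider interval divided counts by the most frequent low count of each library. The ratio, its interval and the call rule were run on simulated counts with known folds, with reads drawn independently and in groups. A level of recovery was required only for independent reads with the counting interval, which is not the clumping seen here. Named genes were the members, BUD23 and, of each other list, up to 4 called genes of largest ratio and the 2 of highest mean FPKM. KRT7, CDH3, CDH11 and other genes named only at 0 counts, and CDKN2A, USH1C, MYO7B, CEACAM1, ESRP2, ZEB1, ZEB2 and SNAI2, fall outside that rule. The members and lists were chosen with earlier results of these data known.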

Additional observations from a re-analysis of the deposited data

How the results depend on the processing

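The alternatives tried were scaling by DESeq2 (1.42.0), by total count and by upper quartile, adding 2 counts, no level filter, a filter at 30 CPM, deposited FPKM with a pseudocount of 0.1 or 1, the wider interval and exon union lengths. No paired analysis was possible because each group held 1 library, which also left no replicate to leave out. CLDN7 was called higher under every alternative that compared it, with a log2 ratio of 1.01 to 1.44. CTNNB1 lay between -1.64 and -0.67, and 0 members were called lower with a pseudocount of 1. Without the level filter, 3 members were called lower (CTNNB1, EPCAM and CLDN1), and the median over 8 members was -1.20 in place of 0.12; CLDN1, EPCAM and CDH1, with 0 counts in shWBSCR22, then enter it. No member reached 30 CPM. Of all 12980 genes compared, 1586 were called higher and 1546 lower, or 12.2% and 11.9%. Of the same genes, 520 and 455 were called with a pseudocount of 1, and 544 and 387 with the wider interval. Total-count scaling gave 1433 and 1747 of them, and a pseudocount of 0.1 gave 1243 and 1507. Other filters changed the number of genes compared. Without the filter 2889 and 3799 of 18020 genes were called, and at 30 CPM 123 and 67 of 3803. At 5 to 20 CPM, a range chosen after seeing the data, 404 and 457 of 4034 genes were called, or 10.0% and 11.3%. The difference in CDH1 over CDH2 could not be computed with the wider interval, because both CDH1 counts then round to 0. Among other named genes, CDHR2, CDHR5, MAGI1, PATJ, PKP2, DCN, PECAM1, SNAI1 and CD24 fell short of the size rule with a pseudocount of 1, to between -0.38 (PKP2) and 0.93 (CD24), and PATJ (0.77), SNAI1 (0.92) and CD24 (0.94) also did so with 0.1.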

Other observations

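CDHR2 and CDHR5 form the adhesion complex that links brush border microvilli in intestinal and kidney epithelium, together with the scaffold USH1C and the motor MYO7B. These genes were looked at after the values of the cadherin family were seen. Of 5 genes listed for the complex, 4 had a row. USH1C had 314 counts in shWBSCR22 and 0 in shCtrl, 117-fold higher when 0 is set to 3 counts. Its log2 ratio was at least 6.57 by the counting interval and at least 3.45 by the wider interval. MYO7B had 13 counts in shWBSCR22 and 31 in shCtrl, with a log2 ratio of -1.06. It was called lower by the counting interval (-2.15 to -0.11), while its wider interval, -7.41 to 2.41, held 0. CDHR2 and CDHR5 prompted the look at this complex, so their calls are no support for it.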
